A study of Mus musculus with 45 samples.

Results

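Maf, Spi1, Cebpa, Cebpb, Nfix, Tfec, Bhlhe41 and Klf2 encode 8 transcription factors that are used to define or steer macrophages, and their levels were followed in macrophages sorted from injured mouse muscle. The genes were taken by symbol, with earlier results of these data known. They are 8 of the 19752 genes with a probe set of a single symbol on the Affymetrix Mouse Gene 1.0 ST array. All 8 passed the intensity filter and are 8 of the 11074 genes tested. The study profiled 45 samples of macrophages, sorted for the surface antigen that Adgre1 encodes, from male C57Bl6 mice in 18 groups. It set mice carrying the diphtheria toxin receptor under the Foxp3 promoter (DTR+, in which diphtheria toxin, DT, removes regulatory T cells) against mice without it (DTR−), and cells with surface MHC class II (MHCII+) against cells without it (MHCII−), after cardiotoxin injury. Arrays are named below by group and by the replicate number in their labels.

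Day 7 was sampled in 3 sets. In the first, labelled 24 h DT and taken at 8 weeks of age, MHCII+ cells came from 2 DTR+ and 4 DTR− samples and MHCII− cells from 3 samples of each genotype. In the second, labelled 8 h DT and taken at 12 weeks, MHCII+ cells came from 3 samples of each genotype and MHCII− cells from 3 DTR+ and 4 DTR− samples. The third set, from mice of 10 weeks, has no DT time in its labels, is called the untimed set here, and held MHCII+ cells alone, with 2 DTR+ and 2 DTR− samples. Day 1, also labelled 24 h DT, had 2 samples in each of its 4 groups at 8 weeks. Day 4 at 8 weeks and uninjured muscle (day 0) at 10 weeks were DTR− alone, with 2 MHCII+ and 2 MHCII− samples each. The moment from which the DT times were counted is not given in the labels. The sort was gated on CD11b+ cells with the Adgre1 antigen and without Ly6G at day 0 and in the 24 h and untimed sets. A SiglecF− step was added for the 8 h set and for days 1 and 4, which also used CD45 and a viability stain. Age and gate therefore cannot be told apart from the set or day in comparisons that cross them. The labels do not say that the samples of a group were separate mice, and p-values speak only for the scatter among these samples, part of which may be technical.

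The cells matched their macrophage label. All 6 macrophage markers (Adgre1, Csf1r, Cd68, Fcgr1, Mertk, Itgam) were above the filter on every array, with an array mean of 11.86 to 12.60 on the log2 intensity scale. H2-Ab1, which encodes a class II chain, lay at 13.67 to 14.01 in the MHCII+ arrays and at 7.81 to 12.45 in the MHCII− arrays, without overlap, while a separate phenotype label reads MHCII− for most MHCII+ samples. Groups were taken from the titles. Arrays of a group correlated at 0.933 to 0.997 over the 11074 genes tested (median 0.982). A few arrays stood apart. MHCII+ DTR+ array 1 of the 8 h set had a T cell marker mean of 9.80 with all 5 measured T cell genes above the filter. The MHCII− day 0 array 1 had a neutrophil marker mean of 10.19, against 7.07 in its partner, and MHCII+ DTR− array 3 of the 24 h set had 7.30. Calls of the 8 factors that ended without these 3 arrays, called below the 3 arrays that stood apart, are named beside their values. The other calls that rest on them are given without them too. Other arrays also stood out and were left out only 1 at a time. An MHCII+ array of day 0 had a B cell marker mean of 8.02, against 7.31 in its partner. MHCII− DTR+ array 3 of the 24 h set had a macrophage marker mean of 12.15, against 12.58 and 12.53 in its group. It read 9.23 for Cebpb, against 10.79 and 10.77. In sorted bulk cells, fewer cells of a type and less RNA per cell cannot be told apart.

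PU.1 (encoded by Spi1) is the ETS-family factor that opens myeloid enhancers, and C/EBPα and C/EBPβ (Cebpa, Cebpb) are basic leucine zipper factors that work with it: C/EBPα in myeloid commitment, C/EBPβ in inflammatory and repair genes such as Arg1. c-MAF (Maf), a basic leucine zipper factor, restrains macrophage self-renewal and activates Il10. TFEC belongs to the MiT family of helix-loop-helix factors, with a form largely restricted to macrophages, BHLHE41 (DEC2) is a helix-loop-helix repressor that binds CACGTG, NFIX is a nuclear factor I protein studied mainly in muscle development, and KLF2 is a zinc finger factor that restrains inflammatory activation of myeloid cells and drives S1pr1 in T cells.

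In the RefSeq annotation of GRCm38.p6, Spi1 lies at chr2:91082374-91115759, Cebpb at chr2:167688915-167690432, Tfec at chr6:16830927-16898464, Bhlhe41 at chr6:145858243-145865420, Cebpa at chr7:35119293-35121928, Klf2 at chr8:72319062-72321654, Nfix at chr8:84704712-84801238 and Maf at chr8:115703253-115706894. Promoter sequence was held for 6 of the 8 genes. It is shown for Tfec, Bhlhe41 and Klf2, the genes among them that differed by genotype in the untimed set, as the bases before the outermost annotated start, 5′ to 3′ on the gene's strand, with the motif found in capitals.
Tfec, chr6:16898465-16898691, minus strand: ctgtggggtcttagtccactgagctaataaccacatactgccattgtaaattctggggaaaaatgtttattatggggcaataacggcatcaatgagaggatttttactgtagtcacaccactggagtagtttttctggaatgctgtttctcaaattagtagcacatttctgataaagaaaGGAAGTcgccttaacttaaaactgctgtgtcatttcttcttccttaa
Bhlhe41, chr6:145865421-145865670, minus strand: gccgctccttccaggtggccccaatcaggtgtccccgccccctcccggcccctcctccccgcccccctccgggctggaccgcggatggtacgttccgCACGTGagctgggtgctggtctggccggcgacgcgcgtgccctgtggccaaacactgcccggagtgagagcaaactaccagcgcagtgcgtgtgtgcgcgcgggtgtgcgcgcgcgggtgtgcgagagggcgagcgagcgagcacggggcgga
Klf2, chr8:72318812-72319061, plus strand: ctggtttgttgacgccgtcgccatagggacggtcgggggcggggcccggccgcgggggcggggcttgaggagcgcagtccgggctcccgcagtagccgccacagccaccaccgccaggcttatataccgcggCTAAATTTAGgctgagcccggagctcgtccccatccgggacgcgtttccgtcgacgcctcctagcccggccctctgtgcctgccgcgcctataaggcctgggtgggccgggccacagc

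The windows searched ran from 250 bases before to 50 after each start, on both strands. GGAAGT, an ETS core of the kind PU.1 binds, was in the Tfec window and in 2 of 4 Nfix windows, and in 23.8% of the 32851 windows of the table. CACGTG was in the Bhlhe41 window and no other window of these genes, against 7.15% of all windows. The core of a MEF2-type site (CTA and TAG with any 4 bases between them) was in the Klf2 window alone among these genes and in 3.69% of all windows. TATAAA was in the Cebpb and Cebpa windows (13.6% of all windows), and neither the C/EBP-type TTGCNNAA (10.8%) nor TGCTGAC, part of a MAF site (4.67%), was in a window of these genes. A match is a run of letters and says nothing of binding.

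The factors differed in how far their levels moved over the 18 groups. The highest and lowest group means lay 5.36-fold apart for Tfec, 3.44-fold for Nfix, 2.69-fold for Maf, 2.59-fold for Klf2, 2.36-fold for Cebpb, 1.65-fold for Cebpa and 1.38-fold for Spi1. On the log2 scale this range was 2.84 for Bhlhe41 and 0.47 for Spi1, beside a median of 0.73 over all genes tested. Within groups the residual SD was highest for Cebpb (0.38) and Bhlhe41 (0.36) and lowest for Spi1 (0.12) and Nfix (0.13), with 0.16 as the median of all genes. A limma F test over all groups passed for 7 of the 8, beside 72.9% of all genes tested, and the exception was Cebpa (adjusted p = 0.0712), while all 8 passed without the 3 arrays that stood apart. The pioneer factor gene Spi1 stayed between 12.31 and 13.01 on all 45 arrays, with group means of 12.35 in MHCII− DTR+ cells of day 1 to 12.82 in MHCII+ DTR+ cells of the 8 h set. Cebpa group means ran from 10.65 to 11.37, in MHCII− DTR+ cells of day 1 and MHCII+ DTR− cells of the 8 h set. Bhlhe41 alone had group means below the filter (log2 7.57), in 6 of 18 groups: the 4 groups of day 1, MHCII+ cells of day 0, and MHCII+ DTR+ cells of the untimed set. The deposited values carry no detection call, so a difference that involves values below the filter is one of dim readings whose true size is uncertain, and no fold is given for it.

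**Figure D1:**
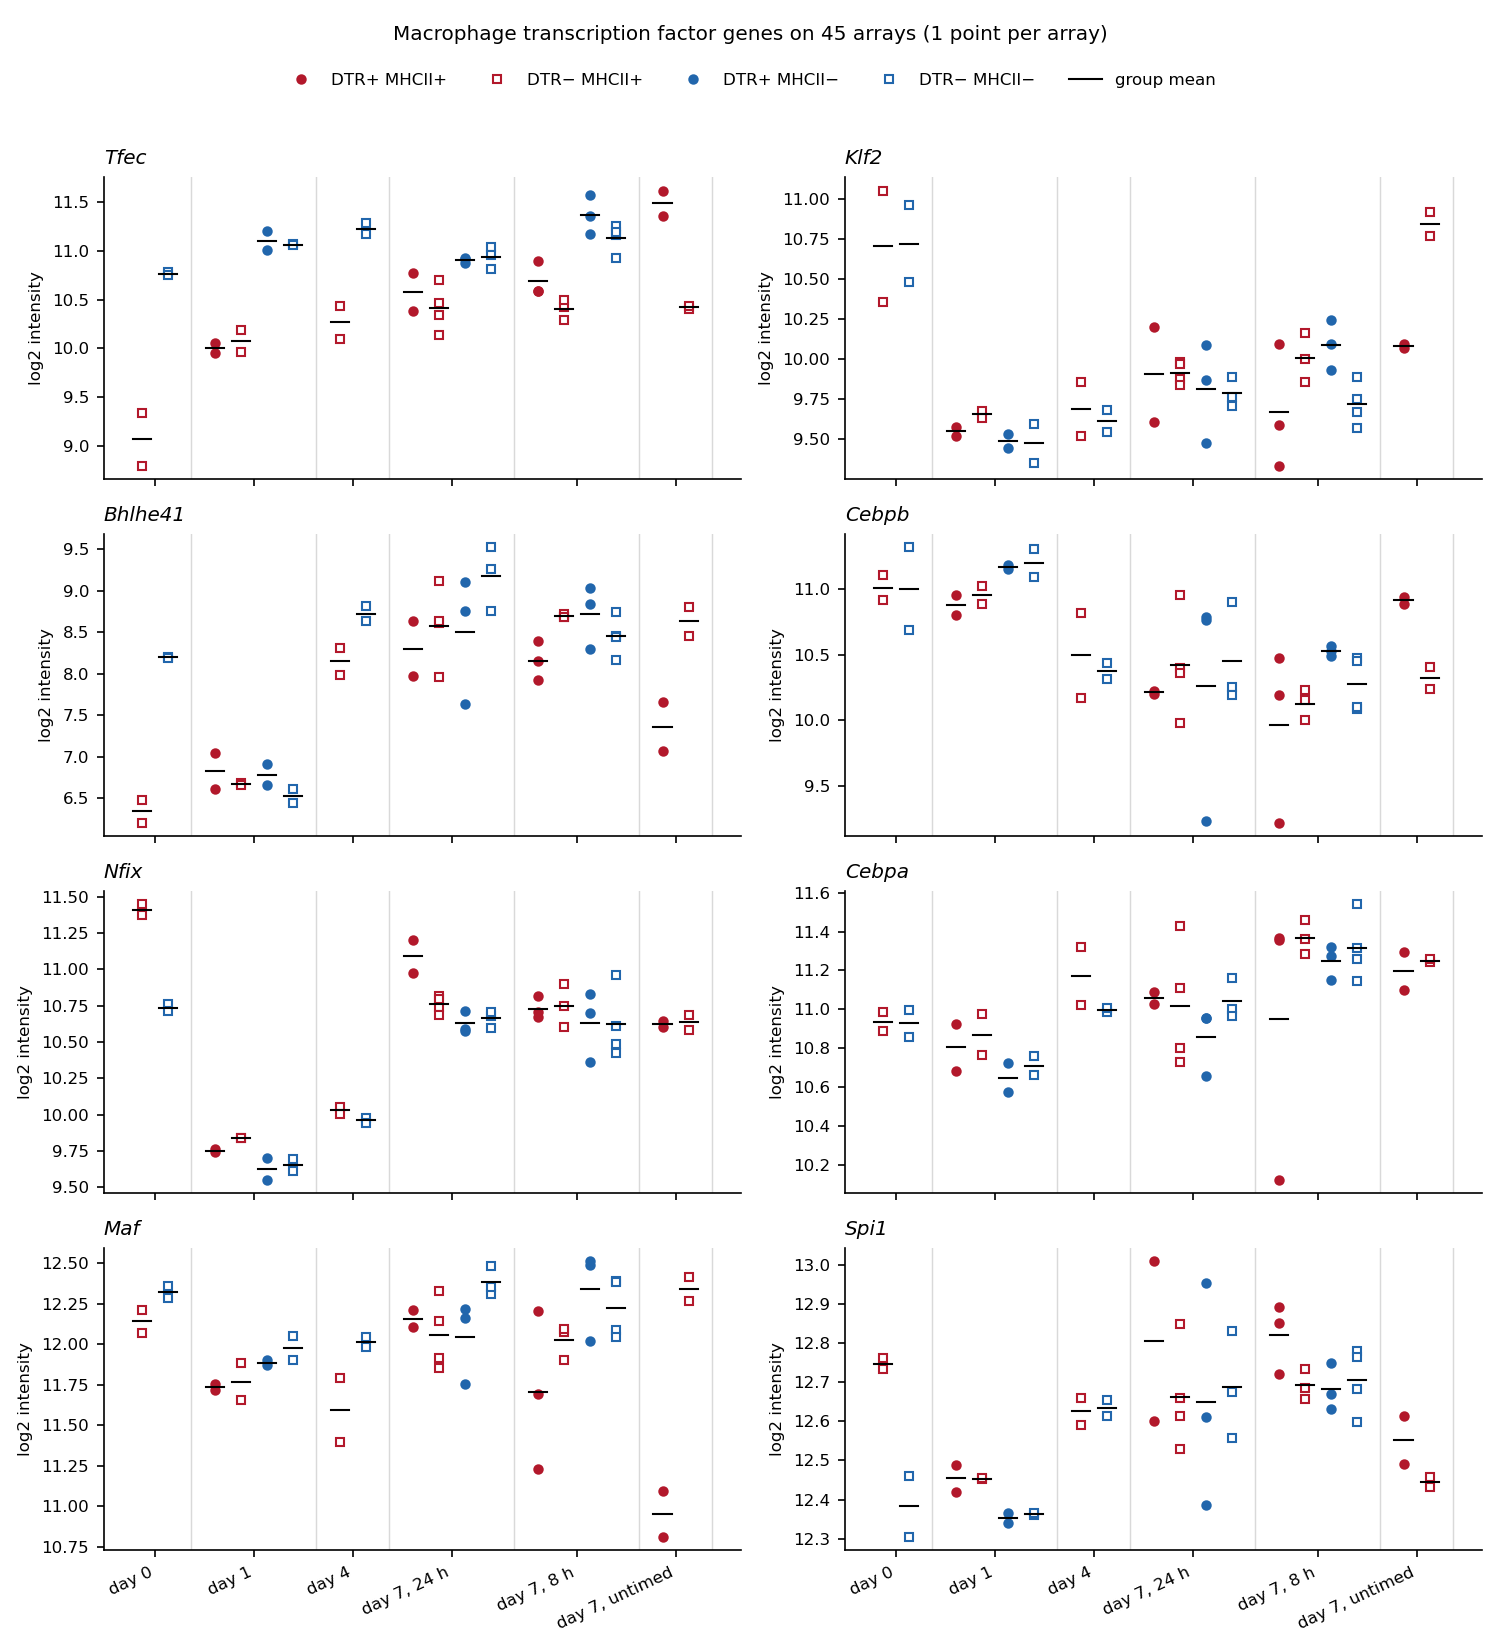
Log2 intensity of the 8 factors in all 45 arrays, 1 panel per gene with its own axis range, by day and set. Each point is 1 array (filled for DTR+, open squares for DTR−, red for MHCII+, blue for MHCII−) and each black line a group mean. Tfec separates the subsets at most times, Bhlhe41 is lowest at day 1 and in MHCII+ cells of day 0, and Spi1 spans only 12.31 to 13.01.

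When the 18 group means of each gene were put in order, most neighbours overlapped in their arrays: 17 of 17 neighbouring pairs for Cebpa, 16 for Spi1 and Klf2, 15 for Maf and Cebpb, 14 for Tfec and Bhlhe41, and 10 for Nfix. Neither these overlaps nor the gaps below were counted over all genes, so they mark no trait of these factors. The gaps over 2 residual SD were 7. MHCII+ DTR+ cells of the untimed set were lowest for Maf, 0.64 below MHCII+ cells of day 4. MHCII+ cells of day 0 were lowest for Tfec, 0.94 below the next group, and highest for Nfix, 0.32 above MHCII+ DTR+ cells of the 24 h set, which in turn lay 0.33 above the next. Another Nfix gap, of 0.59, parted the day 7 and day 0 groups from those of days 4 and 1. Bhlhe41 had its gap of 0.79 between MHCII+ cells of day 4 and MHCII+ DTR+ cells of the untimed set. In Klf2 both day 0 groups (10.72 and 10.71) and the MHCII+ DTR− cells of the untimed set (10.85) lay above all others, with a gap of 0.61 to the next group at 10.09.

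MHCII+ cells were compared with MHCII− cells within each day, DT label and genotype. Tfec read lower in MHCII+ cells in all 8 such comparisons and passed the test in 7 of them, all but DTR+ mice of the 24 h set. Nfix passed in 2, and Bhlhe41, Spi1 and Maf in 1 each. In uninjured muscle Tfec read 9.34 and 8.80 in MHCII+ cells, against 10.79 and 10.75 in MHCII− cells. The difference was −1.70 ± 0.17 (log2 ± SE, 3.25-fold lower, adjusted p = 2.83e-09, limma with Benjamini-Hochberg adjustment over the 11074 genes). Tfec was 1 of 4 of the 8 factors that passed in this comparison, beside 19% of all genes tested.

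The other 3 in uninjured muscle were Bhlhe41, Nfix and Spi1. Bhlhe41 read 6.48 and 6.21 in MHCII+ cells, against 8.20 and 8.20 in MHCII− cells, a difference of −1.86 ± 0.33 (adjusted p = 8.16e-05), where the MHCII+ arrays were below the filter. Nfix ran the other way, with 11.37 and 11.45 in MHCII+ cells and 10.76 and 10.71 in MHCII− cells (0.67 ± 0.13, 1.59-fold higher, adjusted p = 0.000357). Spi1 was at 12.73 and 12.76 in MHCII+ cells and at 12.46 and 12.31 in MHCII− cells (0.36 ± 0.12, 1.29-fold higher, adjusted p = 0.0325). None of these pairs of groups overlapped, nor did those of Maf, which did not pass, so a lack of overlap does not mark out the called genes. It was not counted over all genes. Spi1 lost its call without MHCII+ array 1, MHCII+ array 2 or MHCII− array 2 (adjusted p 0.0831 to 0.249), while Tfec, Bhlhe41 and Nfix kept theirs. Without MHCII− array 1, which carried the neutrophil signal, the differences were −1.68 for Tfec, −1.85 for Bhlhe41, 0.70 for Nfix and 0.44 for Spi1 (adjusted p = 0.0499), and all 4 passed.

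Other cells' markers differed between these day 0 subsets. The dendritic cell marker mean was 8.46 to 8.81 in MHCII+ arrays and 6.98 to 7.10 in MHCII− arrays, with 2 of 3 tested markers higher. The macrophage marker mean was 11.86 to 12.04 in MHCII+ arrays and 12.50 to 12.60 in MHCII− arrays, with 4 of 6 markers lower, and 7 of 7 neutrophil markers were lower in MHCII+ arrays (means of 5.98 to 5.99 against 7.07 to 10.19). Their part in the differences of the factors was not tested.

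Tfec was also lower in MHCII+ than in MHCII− cells after injury. At day 1 it read 10.06 and 9.95 in MHCII+ DTR+ cells, against 11.21 and 11.01 in MHCII− DTR+ cells (−1.10 ± 0.17, adjusted p = 4.54e-05, beside 2.26% of genes). In DTR− mice of day 1 it read 10.19 and 9.96 in MHCII+ cells and 11.07 and 11.06 in MHCII− cells (−0.99 ± 0.17, adjusted p = 0.000233, beside 2.45%). At day 4 it read 10.44 and 10.10 in MHCII+ cells and 11.17 and 11.28 in MHCII− cells (−0.96 ± 0.17, adjusted p = 0.000522, beside 2.12%). In each of these 3 comparisons Tfec was the only one of the 8 to pass. The dendritic cell marker mean was higher in MHCII+ cells here too, at 7.89 to 7.93 against 6.97 to 7.08 in DTR− cells of day 1 and at 8.11 to 8.45 against 7.08 to 7.15 at day 4. In each of the 3 comparisons 1 of 3 T cell markers was also higher in MHCII+ cells and 1 of 7 neutrophil markers lower. Their part was not tested.

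The estimates for day 7 were the smallest. In DTR− mice of the 24 h set it read 10.71, 10.13, 10.47 and 10.34 in MHCII+ cells, against 11.04, 10.95 and 10.82 in MHCII− cells (−0.52 ± 0.13, adjusted p = 0.0137, beside 5.23% of genes). In DTR− mice of the 8 h set it read 10.43, 10.50 and 10.29 in MHCII+ cells, against 11.16, 11.25, 10.93 and 11.19 in MHCII− cells (−0.73 ± 0.13, adjusted p = 0.000689, beside 2.21%). Tfec was again the only one of the 8 to pass in either set. In the 24 h set 2 of 3 dendritic cell, 4 of 8 skeletal muscle, 1 of 4 fibroblast, 1 of 3 T cell, 1 of 2 eosinophil and 1 of 3 monocyte markers were higher in MHCII+ DTR− cells, and 1 of 6 macrophage and 1 of 7 neutrophil markers were lower. In the 8 h set 1 of 3 dendritic cell, 1 of 3 T cell and 1 of 3 monocyte markers were higher and 1 of 2 eosinophil markers was lower. Their part was not tested. The 24 h call was lost without MHCII− array 1 (−0.47, adjusted p = 0.0926) or MHCII− array 2 (−0.51, adjusted p = 0.0618). Without the 3 arrays that stood apart it was −0.54 (adjusted p = 0.0292).

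In DTR+ mice of day 7, which factor passed depended on the set. In the 24 h set Nfix read 10.98 and 11.20 in MHCII+ cells, against 10.58, 10.59 and 10.71 in MHCII− cells (0.46 ± 0.12, adjusted p = 0.0479, beside 1.37% of genes), a call lost without either MHCII+ array or without MHCII− array 1 or 2 (adjusted p 0.0866 to 0.546). Tfec differed by −0.33 ± 0.16 there and did not pass (adjusted p = 0.518). In the 8 h set Tfec read 10.59, 10.90 and 10.59 in MHCII+ cells and 11.57, 11.36 and 11.17 in MHCII− cells (−0.68 ± 0.14, adjusted p = 0.00202), and Maf read 11.23, 12.20 and 11.69 in MHCII+ cells and 12.02, 12.51 and 12.49 in MHCII− cells (−0.63 ± 0.16, adjusted p = 0.0144), beside 7.98% of genes. Among markers of the 24 h set, 1 of 3 T cell markers was higher in MHCII+ DTR+ cells. In the 8 h set 2 of 3 T cell and 2 of 3 dendritic cell markers were higher and 2 of 6 macrophage markers lower. Of others there, 1 of 3 monocyte and 1 of 8 skeletal muscle markers were higher, and of 2 eosinophil markers 1 was higher and 1 lower. Their part was not tested. The lowest Maf value, 11.23, was that of the array with T cell markers. Without it the Maf difference was −0.39 and did not pass (adjusted p = 0.2), and the call was also lost without MHCII− array 5 (adjusted p = 0.0828) or 6 (adjusted p = 0.0776). Without the 3 arrays that stood apart Tfec differed by −0.63 (adjusted p = 0.0215).

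**Figure D2:**
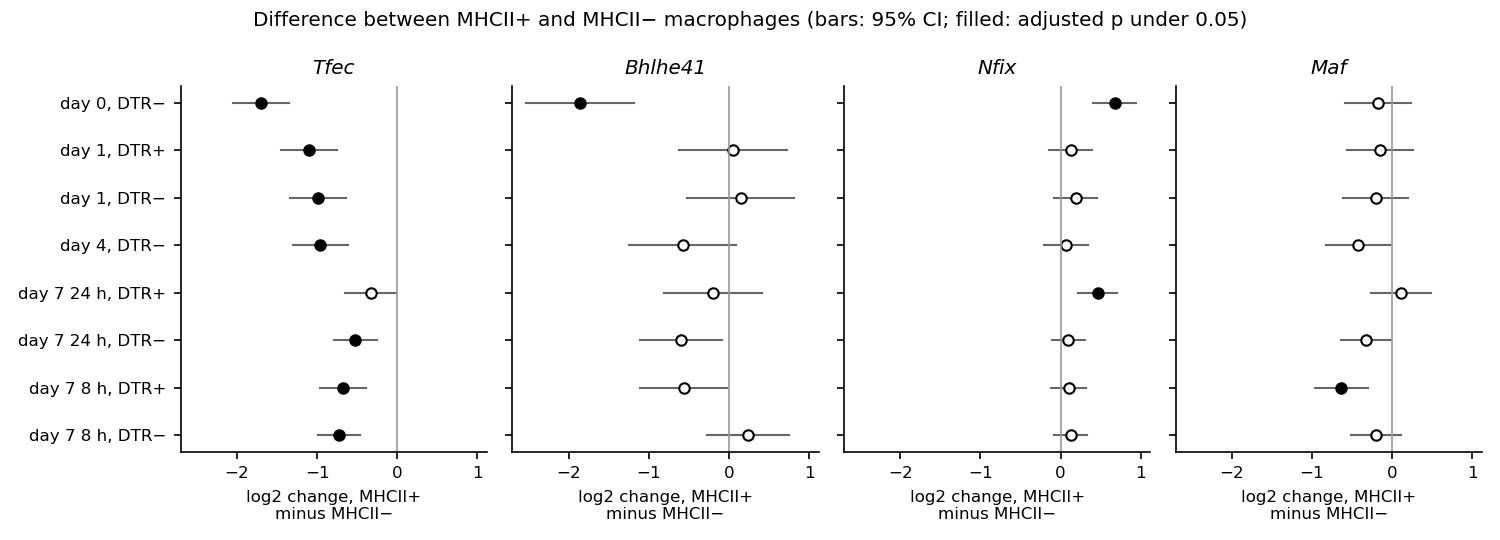
MHCII+ minus MHCII− difference in log2 intensity for Tfec, Bhlhe41, Nfix and Maf in the 8 settings with both subsets. Points are differences of group means, bars are 95% intervals of the limma model, and filled points passed the test. Tfec lies below 0 in all settings, from −1.70 at day 0 to −0.33 in DTR+ mice of the 24 h set.

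Averaged over the 5 DTR− settings, which are the arrays just described and no further evidence, 4 of the 8 passed, beside 17.9% of genes. Tfec was lower in MHCII+ cells by −0.98 ± 0.07 (1.97-fold lower, adjusted p = 4.45e-13), Bhlhe41 by −0.53 ± 0.13 (adjusted p = 0.00425) and Maf by −0.27 ± 0.08 (adjusted p = 0.0198), while Nfix was higher by 0.23 ± 0.05 (adjusted p = 0.0021). Without the 3 arrays that stood apart the means were −0.98 for Tfec, −0.49 for Bhlhe41, −0.25 for Maf and 0.24 for Nfix, and all 4 passed (adjusted p up to 0.0221). The Maf call was lost without MHCII+ array 3 of day 4 (adjusted p = 0.0636) or MHCII+ DTR− array 2 of day 1 (adjusted p = 0.0578). The size of the subset difference varied over the 5 settings for Tfec (F = 8.12, adjusted p = 0.00464) and for Bhlhe41 (F = 7.41, adjusted p = 0.00745), beside 5.76% of genes, and neither passed without MHCII+ array 2 of day 0. For Nfix the same test gave F = 3.74 (adjusted p = 0.137).

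Among 34 tested macrophage transcription factors outside the 8, 13 passed in this mean, beside 17.9% of all genes, 10 higher and 3 lower in MHCII+ cells, with a list median of 0.02 against −0.02 for all genes. Pparg, a nuclear receptor of lipid metabolism, was higher by 0.57, Bhlhe40, the paralogue of Bhlhe41, by 0.71, Maff by 0.39 and Irf5, a factor of inflammatory activation, by 0.22. Mef2a (−0.20), Rxra (−0.21) and Mafg (−0.18) were lower. So Bhlhe40 and Bhlhe41 differed in opposite directions between the subsets, also at day 0 alone, where Bhlhe40 was higher by 1.52 in MHCII+ cells. Of 13 tested genes known as targets of the 8 factors, 8 passed and all 8 were lower in MHCII+ cells, with a list median of −0.32 against −0.02. They included S1pr1 (−0.78), a sphingosine phosphate receptor known as a KLF2 target in T cells, Lyve1 (−1.04) and Folr2 (−0.32), both markers of resident macrophages, and Thbd (−0.56). In the same mean 3 of 6 macrophage and 1 of 7 neutrophil markers were lower. Higher were 2 of 3 dendritic cell, 3 of 8 skeletal muscle and 1 of 4 endothelial markers and the 1 tested B cell marker. Of the T cell, monocyte and eosinophil markers, 1 of each was higher and 1 lower. Csf1r, Fcgr1 and Itgam stand in both the macrophage and the target list and are not among the 8 targets that passed. The part of these cells in the counts was not tested.

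The time after injury was compared within each subset of DTR− mice. Day 0 differs from days 1 and 4 in age and gate as well as injury. Day 1 and the 24 h set of day 7 carry a 24 h DT label and days 0 and 4 none, so the DT label changes at each step and cannot be told apart from time. Comparisons that share a day share its arrays. Between uninjured muscle and day 1, Nfix and Klf2 fell in both subsets. Tfec rose in MHCII+ cells, and Bhlhe41 fell in MHCII− cells.

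Nfix read 9.84 and 9.84 in MHCII+ cells of day 1, against 11.37 and 11.45 at day 0 (−1.57 ± 0.13, 2.97-fold lower, adjusted p = 1.21e-10). In MHCII− cells it read 9.61 and 9.69 at day 1 and 10.76 and 10.71 at day 0 (−1.08 ± 0.13, 2.12-fold lower, adjusted p = 1.23e-07), or −1.06 without the day 0 array that carried neutrophil markers. The day 0 and day 1 arrays of Nfix lay more than 1 log2 unit apart in either subset.

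Klf2 read 9.68 and 9.64 in MHCII+ cells of day 1, against 11.05 and 10.36 at day 0 (−1.05 ± 0.21, 2.07-fold lower, adjusted p = 0.000266). In MHCII− cells it read 9.60 and 9.35 at day 1 and 10.96 and 10.48 at day 0 (−1.25 ± 0.21, 2.37-fold lower, adjusted p = 3.18e-05), or −1.01 without that array. The 2 day 0 arrays of Klf2 differed from each other by more than the day 1 arrays did in both subsets.

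Tfec read 10.19 and 9.96 in MHCII+ cells of day 1, against 9.34 and 8.80 at day 0 (1.01 ± 0.17, 2.01-fold higher, adjusted p = 2.89e-05). Bhlhe41 read 6.61 and 6.44 in MHCII− cells of day 1, against 8.20 and 8.20 at day 0 (−1.67 ± 0.33, adjusted p = 0.00022), with the day 1 arrays below the filter. Without the day 0 array that carried neutrophil markers it was −1.67 (adjusted p = 0.00399). In each subset 3 of the 8 passed, beside 35.6% of all genes in MHCII+ cells and 25.6% in MHCII− cells. In a test of the difference between the subsets in this change Bhlhe41 alone of the 8 passed, beside 4.66% of genes (2.00 ± 0.47 in MHCII+ relative to MHCII− cells, adjusted p = 0.00671, and 2.00 without that array, adjusted p = 0.0244). In 3 of the 4 groups of that test Bhlhe41 was below the filter, MHCII+ cells of day 0 included. The size of this value rests on MHCII− cells of day 0, and it is not separate from the day 0 difference between the subsets. For Tfec that difference was 0.71 (adjusted p = 0.0896).

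Monocyte markers moved with day 1. Their mean was 11.91 to 12.16 in MHCII+ cells of day 1, against 9.49 to 9.90 at day 0, with 2 of 3 tested markers higher. In MHCII− cells it was 12.43 to 12.59 at day 1 and 9.55 to 9.96 at day 0, with 3 of 3 higher. Skeletal muscle markers were lower at day 1, 3 of 8 in MHCII+ and 4 of 8 in MHCII− cells. In MHCII+ cells 3 of 3 dendritic cell, 2 of 3 T cell, 1 of 1 B cell, 2 of 4 endothelial and 1 of 4 fibroblast markers were lower, and 2 of 6 macrophage, 1 of 7 neutrophil and 1 of 2 eosinophil markers higher. In MHCII− cells 6 of 7 neutrophil, 4 of 6 macrophage, 4 of 4 class II, 1 of 3 dendritic cell, 1 of 3 T cell, 1 of 1 B cell, 1 of 2 eosinophil and 1 of 4 fibroblast markers were lower, and 2 of 6 macrophage and 1 of 7 neutrophil markers higher. The part of these cells in the changes of the factors was not tested.

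From day 1 to day 4 the one factor that passed was Bhlhe41, and it rose in both subsets. It read 7.99 and 8.32 in MHCII+ cells of day 4, against 6.68 and 6.66 at day 1 (1.48 ± 0.33, adjusted p = 0.00176, beside 15.4% of genes). In MHCII− cells it read 8.63 and 8.82 at day 4 and 6.61 and 6.44 at day 1 (2.20 ± 0.33, adjusted p = 4.7e-06, beside 24.2%). The day 1 arrays were below the filter in both subsets, and the day 4 arrays above it. The change did not pass a test of difference between the subsets for any of the 8, beside 1.23% of genes. Cebpb read 10.43 and 10.31 in MHCII− cells of day 4, against 11.31 and 11.09 at day 1, a difference of −0.83 that did not pass (adjusted p = 0.0868). Monocyte markers were still at 10.63 to 11.13 in MHCII+ cells and 10.81 to 11.55 in MHCII− cells at day 4, with 1 of 3 lower than at day 1 in each. Of other markers, 3 of 8 skeletal muscle markers were higher at day 4 in each subset, 2 of 4 fibroblast markers in MHCII+ and 3 of 4 in MHCII− cells, and 4 of 4 class II markers in MHCII− cells. In each subset 1 of 3 T cell and 1 of 1 B cell markers were higher and 1 of 7 neutrophil markers lower, and 1 of 3 dendritic cell markers was higher in MHCII+ cells. Macrophage markers split, with 1 of 6 higher and 1 lower in MHCII+ and 3 higher and 1 lower in MHCII− cells. Their part was not tested.

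Between day 4 and day 7 of the 24 h set, of equal age but not gate, Nfix was the one factor that passed. It read 10.74, 10.82, 10.68 and 10.80 in MHCII+ cells of day 7, against 10.05 and 10.01 at day 4 (0.73 ± 0.12, 1.66-fold higher, adjusted p = 0.000328, beside 2.46% of genes). In MHCII− cells it read 10.60, 10.68 and 10.71 at day 7 and 9.98 and 9.94 at day 4 (0.70 ± 0.12, 1.63-fold higher, adjusted p = 0.00132, beside 1.17%). The MHCII− call was lost without array 2 of day 4 (adjusted p = 0.0634). Without the 3 arrays that stood apart the MHCII+ difference was 0.76 (adjusted p = 0.000878). In MHCII+ cells 3 of 4 fibroblast and 3 of 8 skeletal muscle markers were higher at day 7 and 1 of 3 monocyte and 1 of 3 dendritic cell markers lower. In MHCII− cells 4 of 4 class II markers were higher. Their part was not tested.

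MHCII+ DTR− cells of the untimed day 7 set share age and gate with day 0. Against day 0, 3 of the 8 passed, beside 19.2% of genes. Bhlhe41 read 8.46 and 8.81 at day 7 and 6.48 and 6.21 at day 0 (2.29 ± 0.33, adjusted p = 3.26e-06), with the day 0 arrays below the filter. Tfec read 10.40 and 10.44 at day 7 and 9.34 and 8.80 at day 0 (1.35 ± 0.17, 2.56-fold higher, adjusted p = 3.58e-07). Nfix read 10.69 and 10.58 at day 7 and 11.37 and 11.45 at day 0 (−0.77 ± 0.13, 1.71-fold lower, adjusted p = 5.41e-05). In the same comparison 3 of 3 dendritic cell markers (median −1.75) and 2 of 4 endothelial markers were lower, 4 of 6 macrophage markers were higher, and of 8 skeletal muscle markers 4 were higher and 1 lower, as 1 and 1 of 3 T cell markers were. Their part was not tested.

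**Figure D3:**
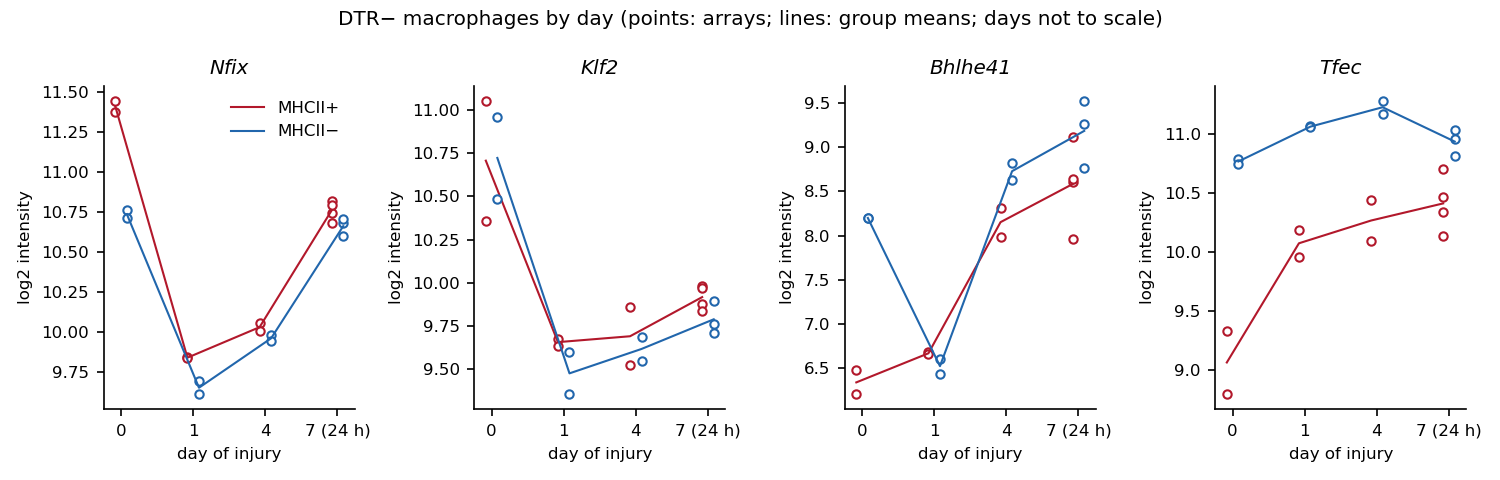
Log2 intensity of Nfix, Klf2, Bhlhe41 and Tfec in DTR− mice at days 0, 1, 4 and 7 (24 h set), in MHCII+ (red) and MHCII− (blue) cells, with days evenly spaced and an axis range for each panel. Points are arrays and lines join group means. Nfix and Klf2 are lower at day 1 than at day 0 in both subsets, Bhlhe41 is higher at day 4 than at day 1 in both, and Tfec is lower in MHCII+ cells throughout.

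Among the 34 other factors, most that passed at day 1 were lower. At day 1 against day 0, 18 of 34 passed in MHCII+ cells, beside 35.6% of all genes, 3 higher and 15 lower (list median −0.35 against −0.01 for all genes), and 12 of 34 in MHCII− cells, beside 25.6%, 1 higher and 11 lower (median −0.19 against −0.03). Nfia, a relative of Nfix, changed by −1.95 in MHCII+ and −1.92 in MHCII− cells, Mef2c, a MADS-box factor, by −0.79 in MHCII+ and −1.17 in MHCII− cells, and Nfic, another relative of Nfix, by −1.21 in MHCII+ cells. Spic, a relative of Spi1 known from red pulp macrophages, changed by −2.04 in MHCII− cells, and Nr1h3, which encodes the oxysterol receptor LXRα, rose by 1.31 in MHCII+ cells. At day 4 against day 1, Nfia was higher by 0.90 in MHCII+ and 1.71 in MHCII− cells, Mef2c by 0.68 in MHCII+ and 0.90 in MHCII− cells, Spic by 1.21 in MHCII+ and 2.16 in MHCII− cells, and Irf8 by 0.95 in MHCII+ and 0.93 in MHCII− cells. In all, 6 of the 34 passed in MHCII+ cells, 5 of them higher, and 9 in MHCII− cells, 7 of them higher, with list medians of 0.17 and 0.14 against −0.01 and 0.05 for all genes. These counts are near the shares over all genes of 15.4% and 24.2%. Nfia in MHCII− cells and Spic in both subsets were below the filter at day 1. Of the targets, 8 of 13 passed in each subset at day 1 against day 0, beside 35.6% of all genes in MHCII+ and 25.6% in MHCII− cells. They were 4 higher and 4 lower in MHCII+ cells and 3 higher and 5 lower in MHCII− cells, with S1pr1 changed by −1.01 in MHCII+ and −1.99 in MHCII− cells and Lyve1 by −2.33 in MHCII+ and −4.28 in MHCII− cells. Arg1, the arginase gene of repair macrophages, rose by 3.81 in MHCII+ and 1.77 in MHCII− cells, and Fcgr1, a high-affinity antibody receptor, by 1.55 in MHCII+ and 0.69 in MHCII− cells.

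DTR+ and DTR− mice were compared within each set. The untimed set has no DT time in its labels, and the loss of regulatory T cells was not checked here in any set. No probe set is annotated to the transgene, so the genotype was not checked on the arrays. In the untimed set 4 of the 8 passed, beside 11.5% of all genes tested. Of these 1 was higher, beside 5.32% of genes, and 3 were lower, beside 6.2%. Maf, Bhlhe41 and Klf2 fell and Tfec rose in MHCII+ cells of DTR+ mice. The median size of change was 0.68 over the 8 factors and 0.16 over all genes. The 8 were chosen with earlier results of these data known, so these contrasts with all genes are no test of the list.

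Maf read 10.81 and 11.10 in DTR+ cells, against 12.42 and 12.27 in DTR− cells (−1.39 ± 0.20, 2.62-fold lower, 95% interval −1.80 to −0.98, adjusted p = 4.88e-06). Both DTR+ values lie below every other Maf value of the series. Tfec read 11.62 and 11.36 in DTR+ cells and 10.40 and 10.44 in DTR− cells (1.07 ± 0.17, 2.1-fold higher, 95% interval 0.72 to 1.42, adjusted p = 2.27e-05). These DTR+ values were above those of every other MHCII+ array, which reached 10.90, and 11.62 was the highest Tfec value of the series. Both calls held with any 1 of the 4 arrays left out, at −1.53 to −1.25 for Maf and 0.94 to 1.20 for Tfec.

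Bhlhe41 read 7.07 and 7.66 in DTR+ cells, against 8.46 and 8.81 in DTR− cells (−1.27 ± 0.33, adjusted p = 0.00804), with the DTR+ mean below the filter. Klf2 read 10.07 and 10.10 in DTR+ cells and 10.92 and 10.77 in DTR− cells (−0.76 ± 0.21, 1.7-fold lower, adjusted p = 0.0142). The groups did not overlap for either gene, nor for Cebpb and Spi1, which did not pass. Overlap was not counted over all genes in any comparison. With 2 arrays in each group here, a lack of it does not mark out these factors. The Bhlhe41 and Klf2 calls rest on few arrays. Bhlhe41 lost its call without DTR+ array 1 (−0.97, adjusted p = 0.209) or DTR− array 2 (−1.09, adjusted p = 0.116), and Klf2 lost its call without any 1 of the 4 (adjusted p 0.0502 to 0.151). Cebpb read 10.89 and 10.94 in DTR+ cells and 10.41 and 10.24 in DTR− cells, a difference of 0.59 that did not pass (95% interval −0.12 to 1.31, adjusted p = 0.349). Spi1 (0.11), Cebpa (−0.05) and Nfix (−0.01) did not pass either.

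**Figure D4:**
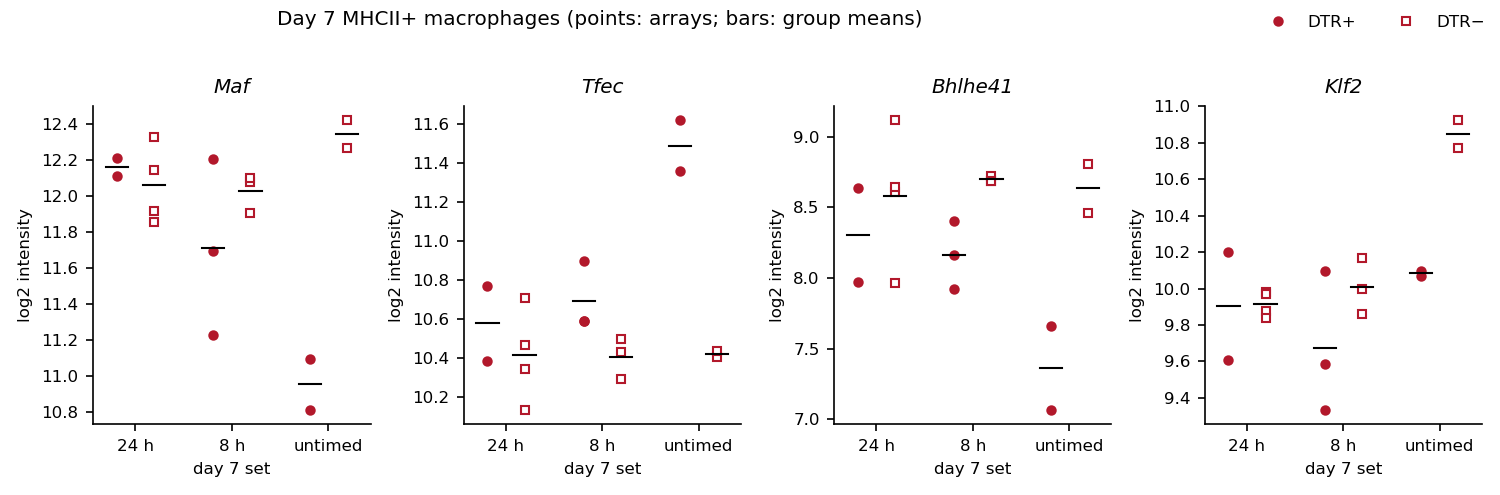
Log2 intensity of Maf, Tfec, Bhlhe41 and Klf2 in the MHCII+ arrays of day 7, DTR+ (filled) beside DTR− (open), for the 24 h, 8 h and untimed sets, with an axis range for each panel. Points are arrays and bars are group means. In the untimed set Maf, Bhlhe41 and Klf2 are lower and Tfec higher in DTR+ cells, and in the 24 h and 8 h sets no factor passed.

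Markers of other cells differed between the genotypes of the untimed set. The T cell marker mean was 6.63 to 6.75 in DTR+ arrays and 7.46 to 7.63 in DTR− arrays (2 of 3 tested markers lower, 1 gene above the filter in DTR+ arrays and 2 to 3 in DTR− arrays, of 5). The skeletal muscle mean was 8.09 to 8.25 in DTR+ arrays and 8.72 to 8.85 in DTR− arrays (5 of 8 lower), and the monocyte mean was 9.96 to 10.27 in DTR+ arrays and 9.26 in both DTR− arrays (1 of 3 higher). The neutrophil mean was 6.40 to 6.64 in DTR+ arrays and 6.00 to 6.12 in DTR− arrays (1 of 7 higher), and 2 of 6 macrophage markers were lower in DTR+ arrays. Of the eosinophil markers 1 of 2 and of the endothelial markers 1 of 4 were higher, the 1 tested B cell marker was lower, and no class II, dendritic cell or fibroblast marker passed. Their part in the changes of the 4 factors was not tested.

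Of the 34 other macrophage factors, 5 passed in the untimed set, near the 11.5% of all genes, with a list median of −0.15 against −0.01 for all genes. Bhlhe40 was at 11.72 in DTR+ and 10.17 in DTR− cells (1.56 higher, adjusted p = 8.31e-05), the opposite direction to its paralogue Bhlhe41. Mef2c was at 10.29 in DTR+ and 11.49 in DTR− cells (−1.20, adjusted p = 4.79e-08), and Fli1, an ETS factor (−0.78), Spic (−1.69) and Nfia (−0.52) fell as well. Of the 13 targets, 5 passed, beside the same 11.5%, with a median of −0.19 against −0.01. Arg1 was at 13.07 in DTR+ and 6.89 in DTR− cells (6.18 higher, adjusted p = 2.97e-09), while S1pr1 was at 7.07 in DTR+ and 10.02 in DTR− cells (−2.94, adjusted p = 2.84e-16). Il10, which c-MAF activates, was at 9.10 in DTR+ and 10.85 in DTR− cells (−1.75), and Cd163, a scavenger receptor of resident macrophages, was at 8.15 in DTR+ and 9.75 in DTR− cells (−1.60), with Folr2 changed by −0.71. Arg1 in DTR− cells and S1pr1 and Spic in DTR+ cells were below the filter, so the sizes of these differences are uncertain.

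In the remaining 6 genotype comparisons none of the 8 passed, and few genes did anywhere. In MHCII+ cells of the 24 h set 0.0542% of genes passed (716 at an unadjusted p under 0.05), and in MHCII− cells 0.00903% (717). In the 8 h set 0.488% passed in MHCII+ cells (2044 unadjusted) and 0.0181% in MHCII− cells (486). At day 1 0% of genes passed in either subset, with 25 unadjusted in MHCII+ and 154 in MHCII− cells. In MHCII+ cells of the 24 h set Maf read 12.11 and 12.21 in DTR+ mice, against 11.91, 12.14, 11.86 and 12.33 in DTR− mice, and in the 8 h set 11.23, 12.20 and 11.69 in DTR+ mice, against 12.08, 12.10 and 11.90 in DTR− mice, so the genotypes overlapped in both sets. Tfec read 10.38 and 10.77 in DTR+ mice of the 24 h set, against 10.71, 10.13, 10.47 and 10.34 in DTR− mice. In the 8 h set it read 10.59, 10.90 and 10.59 in DTR+ mice and 10.43, 10.50 and 10.29 in DTR− mice, a difference of 0.29 ± 0.14 with no overlap that did not pass (adjusted p = 0.265). Bhlhe41 read 7.92, 8.40 and 8.16 in DTR+ mice of that set and 8.69, 8.72 and 8.68 in DTR− mice, also without overlap and without a pass (−0.54 ± 0.27, adjusted p = 0.275).

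The nearest to a call elsewhere were single genes. Nfix differed by 0.33 ± 0.12 in MHCII+ cells of the 24 h set (adjusted p = 0.742). Bhlhe41 differed by −0.68 ± 0.27 (adjusted p = 0.718) and Maf by −0.34 (adjusted p = 0.756) in MHCII− cells of that set, values that were −0.25 and −0.19 without DTR+ array 3. Klf2 differed by 0.37 ± 0.16 in MHCII− cells of the 8 h set (adjusted p = 0.998), and Cebpa by −0.42 in its MHCII+ cells (adjusted p = 0.241), which was −0.01 without the array that carried T cell markers. A test of whether the genotype effect differed between MHCII+ and MHCII− cells passed for none of the 8. This held in the 24 h set, where 0% of genes passed (1012 unadjusted), and in the 8 h set (0%, 856 unadjusted). In the 8 h set Klf2 gave −0.71 ± 0.24 and Bhlhe41 −0.81 ± 0.37 in that test (adjusted p = 0.598 for each), or −0.54 and −0.69 without the 3 arrays that stood apart.

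Whether the genotype effect in MHCII+ cells itself differed between day 7 sets was tested in comparisons added after the data were seen. Between the untimed and the 24 h set it differed by −1.49 ± 0.27 for Maf (adjusted p = 0.000245) and by 0.90 ± 0.23 for Tfec (adjusted p = 0.00877), beside 7.52% of all genes tested. Between the untimed and the 8 h set it differed by −1.07 ± 0.26 for Maf (adjusted p = 0.0068) and by 0.78 ± 0.22 for Tfec (adjusted p = 0.0214), beside 7.9% of genes. Bhlhe41 (−0.99 and −0.73) and Klf2 (−0.75 and −0.43) did not pass in either. These calls rest on few arrays. Against the 24 h set Tfec lost its call without DTR+ array 1 of the 24 h set (adjusted p = 0.0796) or of the untimed set (adjusted p = 0.0988), and Maf kept it. Against the 8 h set Maf lost its call without array 1 of either genotype of the untimed set (adjusted p 0.0555 to 0.079). Tfec lost its call there without any 1 of 6 of the 10 arrays, namely DTR+ array 1 and both DTR− arrays of the untimed set and DTR+ arrays 1 and 4 and DTR− array 2 of the 8 h set (adjusted p 0.0504 to 0.183). Without the 3 arrays that stood apart Maf differed by −1.42 and −1.31 from the 24 h and 8 h sets and passed in both, and Tfec by 0.89, which passed, and 0.73, which did not (adjusted p = 0.0582). The sets differ in age and in part in gate and DT label, which cannot be told apart here.

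**Figure D5:**
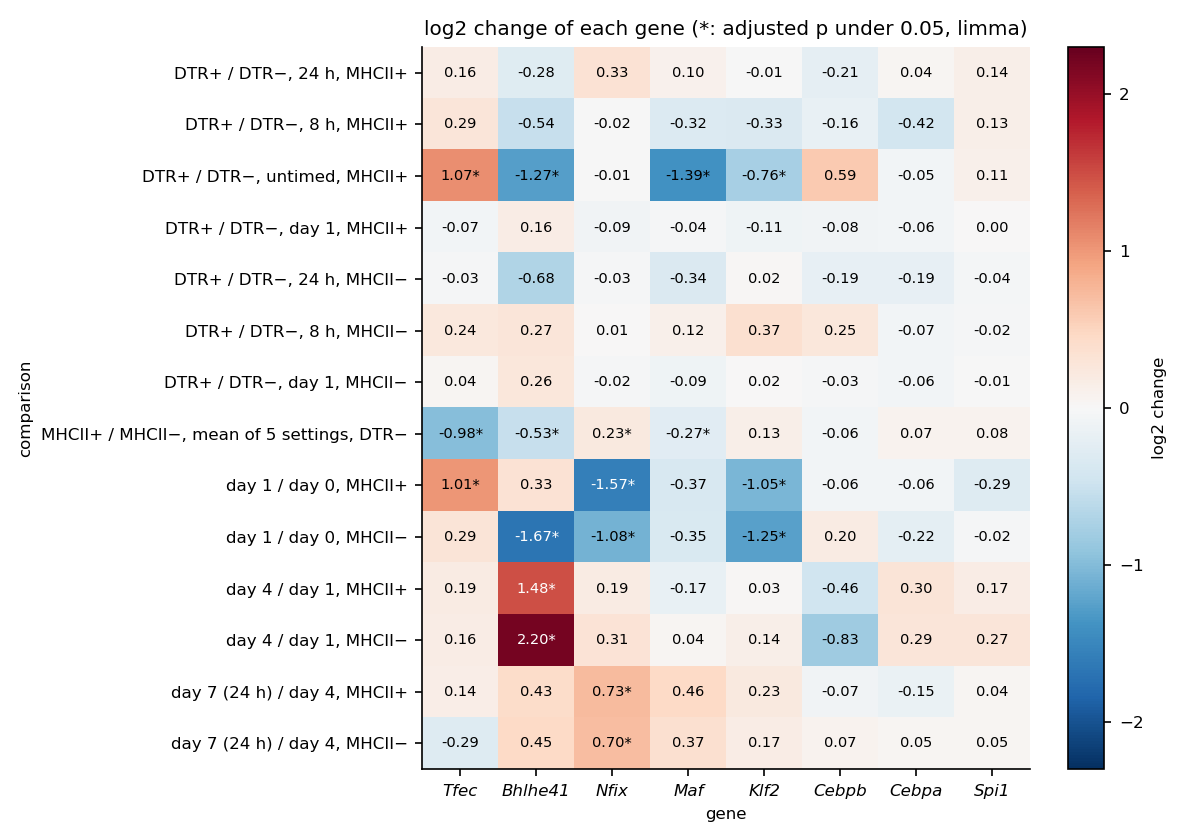
Log2 change of each gene (columns) in 14 comparisons (down the page), coloured by sign and size, with an asterisk where the adjusted p was under 0.05. Marks stand at Maf, Tfec, Bhlhe41 and Klf2 for genotype in the untimed set, at Tfec, Bhlhe41, Nfix and Maf for the mean subset difference, and at Nfix, Klf2, Bhlhe41 and Tfec among the time comparisons. Cebpb, Cebpa and Spi1 carry none.

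The genes whose group means followed each factor most closely over the 18 groups are given as a description. The groups share days, ages and gates, and no test was made. Bhlhe41 was followed by Gpr137b (Pearson r = 0.973), Gpnmb (0.962) and Trem2 (0.962), the last of which encodes a lipid-sensing receptor. Nfix was followed by Thra (0.959), which encodes a thyroid hormone receptor, C1qtnf1 (0.946) and Asgr2 (0.942). Klf2 was followed by the AP-1 genes Jund (0.943), Fos (0.892) and Jun (0.889). Maf was followed by Slc9a9 (0.941), Rnf150 (0.915) and Plekhg3 (0.898), and Tfec by Gng12 (0.94), Pygl (0.902) and Gde1 (0.885). Spi1 was followed by Tada3 (0.934), Rbm22 (0.924) and Ube2e2 (0.922), Cebpa by Slc12a9 (0.942), Itm2c (0.922) and Ctsh (0.919), and Cebpb by Spata2 (0.928), Mapk8ip3 (0.922) and Map2k3 (0.904). Among the 28 pairs of the 8 factors the highest correlations were 0.682 for Spi1 with Nfix, 0.666 for Nfix with Klf2 and 0.629 for Cebpa with Bhlhe41. The lowest were −0.795 for Cebpb with Bhlhe41 and −0.74 for Spi1 with Cebpb.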

How the data were processed

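The values are array intensities on a linear scale (9.43 to 24649, array medians 175 to 204), deposited by the authors after RMA summarisation in Affymetrix Power Tools, per the submitters' processing notes (versions not given in the sources used here). Of 24922 probe sets, 21425 have 1 gene symbol in the platform annotation, 1399 several and 2098 none, and 21347 of the 21425 matched RefSeq. Intensities were taken to log2, and the probe set of highest mean was kept per gene, which for the 8 factors was the only one. Genes with a group mean at or above the median of all values (190) in at least 1 group were kept, 11074 in all. limma 3.58.1 (R 4.3.3) was fitted on all 45 arrays with 1 mean per group and an intensity trend, leaving 27 residual degrees of freedom. Benjamini-Hochberg adjustment ran over all tested genes in each comparison, and an adjusted p under 0.05 is a pass. The fit was tested on simulated data. Python 3.11.15 with pandas 2.3.3, numpy 2.4.6 and matplotlib 3.10.9 searched promoters and drew figures. The members, marker lists and gene lists were chosen with earlier results of these data known. Up to 4 genes per direction with the smallest p were named from a list, and the 3 most alike genes per factor. Replicate numbers paired MHCII+ and MHCII− samples by the rule used only in DTR− mice of the 8 h set (correlations of deviations 0.480, 0.527 and 0.583 over 3 pairs). Arrays give no read depth, so their number limits the precision. Alternatives covered the filter, scaling, array weights, trend, arrays fitted and each array left out.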

Additional observations from a re-analysis of the deposited data

Results flagged for a closer look

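These differences between groups were themselves tested. The MHCII+ minus MHCII− difference of Bhlhe41 changed between day 0 and day 1 by 2.00 on the log2 scale (adjusted p = 0.00671), with the arrays of MHCII+ cells of day 0 and of both subsets of day 1 below the intensity filter. Over the 5 DTR− settings the subset difference varied for Tfec (F = 8.12, adjusted p = 0.00464) and Bhlhe41 (F = 7.41, adjusted p = 0.00745). The genotype effect in MHCII+ cells of the untimed day 7 set differed from that of the 24 h set by −1.49 for Maf and 0.90 for Tfec, and from that of the 8 h set by −1.07 for Maf and 0.78 for Tfec. These sets differ in age and in part in gate, which cannot be told apart from the DT label.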

How the results depend on the processing

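Only the 63 changes of a factor with an unadjusted limma p under 0.05 in the main fit were followed. None of them reversed under any alternative, which says nothing of smaller changes. Centring the arrays, leaving out the trend, a stricter filter (7993 genes) and the 8 h set as day 7 changed no count or call. Here and below, a small shift of a count, such as 3 in place of 4, was taken as the same. With array weights (0.0301 to 31.2), of the 8 factors 2 passed for genotype in MHCII− cells of the 24 h set and 2 in those of the 8 h set, 1 for the subset in DTR+ mice of the 8 h set, 5 for day 1 against day 0 in either subset, 5 for day 4 against day 1 and 4 for day 7 against day 4 in MHCII− cells, 5 for the untimed set against day 0, 3 for the subset by time test, and 4 for each of the 2 differences of genotype effect between sets. With the compared arrays alone, which leaves few degrees of freedom, 0 passed for the subset in either genotype of the 24 h set or in DTR+ mice of the 8 h set, 2 for the subset in DTR+ mice of day 1, 5 for day 1 against day 0 in either subset, 5 for day 4 against day 1 in MHCII− cells, 0 in MHCII+ and 2 in MHCII− cells for day 7 against day 4, 6 for the untimed set against day 0, 2 for the subset by time test, and 1 for each difference between sets. Without the filter and with quantile scaling 0 passed for the subset in DTR+ mice of the 24 h set. Quantile scaling left 1 for the untimed against the 8 h set. Without the 3 arrays with T cell or neutrophil markers, an alternative chosen after seeing the data, 1 passed for the subset in DTR+ mice of the 8 h set and 1 for the untimed against the 8 h set. Leaving out 1 array at a time gave 2 to 3 for genotype in the untimed set, 0 to 1 for genotype in MHCII+ cells of the 8 h set, 1 to 3 and 0 to 2 for the untimed against the 24 h and 8 h sets, 0 to 2 for the subset by setting, 1 to 2 for the subset by time, 3 to 4 for the subset at day 0 and in the mean, 0 to 1 for the subset in either genotype of the 24 h set, 1 to 3 for the subset in DTR+ mice of the 8 h set and 0 to 1 for day 7 against day 4 in MHCII− cells. The cause of these shifts was not tested. The share of all genes that passed was not taken under these alternatives. The counts therefore show how the calls shift and are no result about the factors. With the replicate number as a replicate block, 17 of 17 counts and 37 of 37 member calls were the same, the paired DTR− samples of the 8 h set included. Other probe sets per gene were not tried, since each factor has 1.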
